A study of Homo sapiens with 6 samples.

Results

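Tubulin isotypes are the separate gene copies of α-tubulin and β-tubulin, the building blocks of microtubules. The 10 genes described here are the α-tubulin genes TUBA1A, TUBA1B, TUBA1C and TUBA4A and the β-tubulin genes TUBB, TUBB2A, TUBB2B, TUBB3, TUBB4B and TUBB6. They were chosen by gene symbol, out of 24462 different symbols in the deposited count files. TUBB is entered 8 times in each file, and 7 of these entries are at 0 in every library, so its level comes from the remaining entry. All 10 genes passed the filter on low counts and entered the test with 12514 genes in total.

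The study compared HCEC 1CT, an immortalized human colonic epithelial cell line made with a telomerase transgene, with 1CT-A, the same line depleted of the tumor suppressor APC. The labels call the groups WT and APC KD, with 3 RNA-seq libraries each, and the question is what loss of APC does to the transcriptome of these cells. Cells of both groups grew without treatment in DMEM and M199 mixed 4:1, with EGF at 20 ng/mL, hydrocortisone at 1 μg/mL, insulin at 10 μg/mL, sodium selenite at 5 nM, transferrin at 2 μg/mL and FBS at 2%, with incubators set to 37 °C and CO2 at 5%. Both lines were obtained from another laboratory, 1CT-A as a finished line. The sources used here do not state whether 1CT-A is a clone or a pool, or name a control vector for the 1CT libraries. They also do not say that the replicates are separate cultures. The p-values therefore measure the spread between these libraries, which may be technical, and what differs between the 2 lines beside APC cannot be told apart from its depletion.

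The 1CT libraries hold 7788679 to 8452258 counts and the 1CT-A libraries 11158108 to 12602988, so depth moved with the cell line by a factor of 1.43. Levels are therefore given as counts per 1000000 counts of the library (CPM), and 3 counts correspond to 0.238 to 0.385 CPM. Among the 1CT libraries replicate 3 stood furthest from the others, its counts giving a chi-square over degrees of freedom of 7.54 and 9.004 against replicates 1 and 2, compared with 3.11 to 4.56 for the other pairs within a line. APC itself was at 49.3, 43.8 and 46.6 CPM in 1CT and at 31.5, 30.0 and 34.4 CPM in 1CT-A. It was lower in every 1CT-A library, with a log2 fold change of -0.58 (standard error (SE) 0.09, adjusted p = 0.000176, edgeR quasi-likelihood test with Benjamini-Hochberg adjustment, n = 3 libraries per line), and was still counted there.

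Most defining markers of the labelled epithelium were at or near 0 in both lines. Of 15 colon epithelium markers, 9 had at most 3 counts in all 6 libraries, EPCAM, CDX1, VIL1, CLDN3 and GPA33 had none, and the sum of the list was 41.3 to 45.2 CPM over the 1CT libraries and 23.6 to 30.8 over the 1CT-A libraries. Most of that sum was CLDN7, at 24.3 to 28.0 CPM in 1CT libraries and 17.2 to 24.4 CPM in 1CT-A libraries, and KRT18, at 9.94 to 13.2 and 3.23 to 7.02 CPM. KRT19 had 20 to 34 counts in 1CT libraries and 0 in every 1CT-A library. All 10 fibroblast and mesenchyme markers had a mean over 10 CPM, and their sum was 45067 to 53107 CPM over the 1CT libraries and 22175 to 23575 over the 1CT-A libraries. Most of that sum was FN1, at 40237 to 47281 CPM in the 1CT libraries and 17421 to 19040 CPM in the 1CT-A libraries. Of the list 5 genes were called lower and 2 higher, COL3A1 (from 47.8 to 253 CPM on average) and DCN (from 70.6 to 89.4 CPM), and COL1A2, TAGLN and LUM were not called. The 4 glial markers were at 0 and the 4 endothelial markers together reached at most 0.514 CPM. Of 4 blood markers, 3 had at most 3 counts in every library, and the sum of the list was 10.9 to 14.4 CPM over the 1CT libraries and 8.49 to 10.1 over the 1CT-A libraries.

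An α-tubulin and a β-tubulin molecule fold with the help of prefoldin, the CCT chaperonin and tubulin cofactors, join as a heterodimer, and add to the ends of microtubules, which form the mitotic spindle and the tracks of intracellular transport. The isotypes are closely alike over most of the protein and differ mainly in their acidic C-terminal tails, where enzymes add or remove tyrosine and glutamate residues. Cells adjust tubulin mRNA to the pool of free dimers, since the ribosome-bound factor TTC5 recognizes newly made tubulin and triggers decay of its mRNA. TUBA1A, TUBB2A, TUBB2B and TUBB3 are known for high expression in neurons, and TUBA1B, TUBA1C, TUBB and TUBB4B for broad expression in dividing cells. The APC protein binds microtubules and their plus ends, beside its role in breaking down β-catenin.

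The last coding bases of the 6 β-tubulin genes are shown because they encode the tail in which isotypes differ. They are the end of the coding sequence and not the end of the transcript. Each line has the final 60 coding bases and the stop codon of the GENCODE release 44 reference transcript on GRCh38, read 5′ to 3′, with the codon of the last amino acid in capitals.
TUBB: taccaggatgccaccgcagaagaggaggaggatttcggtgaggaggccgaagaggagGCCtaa
TUBB2A: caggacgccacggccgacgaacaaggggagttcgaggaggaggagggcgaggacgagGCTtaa
TUBB2B: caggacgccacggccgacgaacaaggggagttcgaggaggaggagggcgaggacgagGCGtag
TUBB3: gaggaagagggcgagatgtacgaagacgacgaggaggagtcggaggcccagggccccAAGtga
TUBB4B: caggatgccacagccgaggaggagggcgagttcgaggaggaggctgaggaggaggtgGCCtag
TUBB6: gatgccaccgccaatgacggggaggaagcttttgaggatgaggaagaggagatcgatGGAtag

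These ends lie in the last coding exon, with TUBB at chr6:30724335-30724397 (plus strand), TUBB2A at chr6:3153863-3153925 (minus strand), TUBB2B at chr6:3224751-3224813 (minus strand), TUBB3 at chr16:89935742-89935804 (plus strand), TUBB4B at chr9:137243494-137243556 (plus strand) and TUBB6 at chr18:12326068-12326130 (plus strand).
The ends of TUBB2A and TUBB2B differ at 2 of 63 positions. TUBB3 ends in AAG, a lysine codon, and TUBB6 in GGA, a glycine codon, while the other β-tubulin genes end in an alanine codon.

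Over the whole coding sequence, identity is 95.9% to 97.2% among TUBA1A, TUBA1B and TUBA1C, 84.4% to 85.7% between these and TUBA4A, 98.1% between TUBB2A and TUBB2B, and 80.9% to 87.7% for the other β-tubulin pairs. The labels name a 3′ protocol, but the sources used here do not settle whether reads came only from transcript ends. In the last 300 bases of the transcripts, where such reads would fall, the share of stretches of 50 bases found also in another gene was 14.3% for TUBA1A, 13.9% for TUBA1B, 19.9% for TUBB2A and 7.17% for TUBB4B. It was 0 for TUBA1C, TUBA4A, TUBB, TUBB2B and TUBB6. For TUBB3 it was 98.0%, because an annotated gene without a symbol runs over it on the same strand. How reads that match several genes were counted is not given in the sources used here, so the values of the genes above 0 carry that uncertainty. Over the whole coding sequence the share was 58.6% for TUBA1A, 75.7% for TUBA1B, 57.0% for TUBA1C and 8.55% for TUBA4A. Among the β-tubulin genes it was 33.4% for TUBB, 78.5% for TUBB2A, 79.8% for TUBB2B, 95.8% for TUBB3, 12.2% for TUBB4B and 1.55% for TUBB6. If reads came from whole transcripts, the values of these genes carry the same uncertainty. TUBA1B and TUBA1A lie 53288 bases apart on chromosome 12, and TUBB2A and TUBB2B lie 65779 bases apart on chromosome 6. TUBA1A and TUBA1C overlap by 345 bases on opposite strands. Exons of TUBA1C cover 104 bases of the TUBA1A transcript, outside its last 300.

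**Figure D1:**
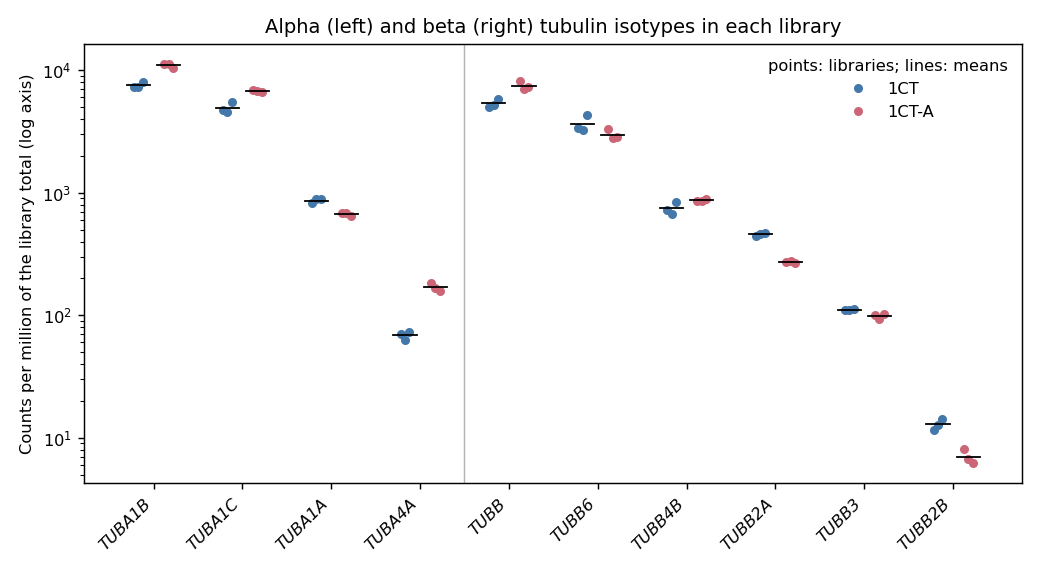
Level of each tubulin isotype in each library, in CPM on a log axis, with points for the 3 libraries of a cell line and a line for their mean. TUBA1B, TUBA1C, TUBA4A and TUBB sit higher in all 1CT-A libraries, TUBA1A, TUBB2A, TUBB2B and TUBB3 sit lower in all of them, and the points of TUBB6 overlap between the lines.

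In both lines the same few isotypes supplied most of the tubulin mRNA. Levels of different genes were compared as CPM per kilobase (kb) of reference transcript, a scale that applies where reads come from the whole transcript and not where they come only from its end. TUBA1B had the highest level in both lines, with 4641 ± 279 CPM per kb in 1CT and 6753 ± 258 in 1CT-A (SD, n = 3). In 1CT it was followed by TUBB (2134 ± 170), TUBB6 (1942 ± 307) and TUBA1C (1755 ± 169), and neighbours among these 3 overlapped over the libraries. TUBA1A and TUBB4B came next at 516 ± 21.8 and 477 ± 52.5 CPM per kb and overlapped too. TUBB2A (285 ± 8.63), TUBB3 (65.3 ± 0.801), TUBA4A (33.6 ± 2.58) and TUBB2B (6.70 ± 0.692) were each apart from the gene before.

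In 1CT-A no neighbours in the order overlapped. The order per kb became TUBA1B, TUBB, TUBA1C, TUBB6, TUBB4B, TUBA1A, TUBB2A, TUBA4A, TUBB3 and TUBB2B, and TUBB3 and TUBA4A, which did not overlap in either line, stood in the opposite order in 1CT. The places of TUBB6 and TUBA1C and of TUBA1A and TUBB4B were not resolved in 1CT, where their libraries overlapped, and by CPM without division by length TUBA1C was above TUBB6 in both lines. Together the 10 genes took 2.26% to 2.61% of all counts in 1CT and 2.93% to 3.17% in 1CT-A.

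The isotypes did not move together. Of the 10 genes, 4 were higher in 1CT-A (TUBA1B, TUBA1C, TUBA4A and TUBB), 5 were lower (TUBA1A, TUBB2A, TUBB2B, TUBB3 and TUBB6), and TUBB4B did not pass an adjusted p of 0.05. Over all genes tested, 25% were called higher and 26% lower, 51% in all, so a call by itself was common in this comparison. Their median log2 fold change was -0.01, as was that of all genes tested, and the median size of the change without its sign was 0.42 for the isotypes and 0.36 for all genes. In 9 of the 10 genes the libraries of the lines did not overlap, as in 59.7% of all genes tested. TUBA4A was the only isotype that changed over 2-fold. In bulk RNA, fewer cells of a type and less RNA per cell cannot be told apart.

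Among the α-tubulin genes, TUBA1B, the main α isotype of most dividing cells, was at 7274, 7304 and 8075 CPM in 1CT and at 11200, 11257 and 10503 CPM in 1CT-A. Its groups did not overlap, and the log2 fold change was 0.50 (SE 0.07, adjusted p = 3.77e-05, edgeR), or 1.42-fold. The exons of TUBA1B-AS1, on the opposite strand, cover 1182 bases of the TUBA1B transcript and all of its last 300, so without knowledge of the strand used in counting its reads cannot be told apart from those of TUBA1B. TUBA1C, a close copy that is also broadly expressed, was at 4775, 4593 and 5495 CPM in 1CT and at 6944, 6740 and 6619 CPM in 1CT-A. It rose by 0.41 on the log2 scale (SE 0.07, adjusted p = 0.000525), with every 1CT-A library above every 1CT library. Exons of genes without a symbol on the opposite strand cover 666 bases of the TUBA1C transcript and 538 of the TUBB transcript, outside their last 300. If reads came from whole transcripts, the limit of unknown strand applies to TUBA1C and TUBB as well.

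TUBA4A, an α isotype known from platelets and muscle, had the largest change of the 10. It was at 69.9, 63.1 and 73.6 CPM in 1CT and at 182, 168 and 158 CPM in 1CT-A, a log2 fold change of 1.26 (SE 0.09, adjusted p = 1.39e-07), or 2.40-fold. All 1CT-A libraries were high. The gene STK16 lies on the opposite strand and its exons cover all 300 of the last transcript bases of TUBA4A. STK16 itself was at 96.9 ± 6.21 CPM in 1CT and 149 ± 7.19 CPM in 1CT-A, and was also called higher (log2 fold change 0.59, adjusted p = 5.1e-05). Its counts were 133% to 149% of those of TUBA4A in 1CT and 84.5% to 94.2% in 1CT-A, so the pair did not keep a fixed ratio. Without knowledge of the strand used in counting, reads of the pair cannot be told apart.

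TUBA1A, the α isotype best known from developing neurons, went the other way. It was at 820, 885 and 882 CPM in 1CT and at 680, 688 and 644 CPM in 1CT-A, without overlap, and fell by 0.40 on the log2 scale (SE 0.06, adjusted p = 0.000184). TUBA1A and TUBA1B, whose coding sequences are 97.2% identical, thus moved in opposite directions. Within each library TUBA1A counts were 11.4% of TUBA1B counts in 1CT and 6.10% in 1CT-A, a difference of -0.90 in the log2 ratio, lower in 3 of 3 1CT-A libraries (two-sided exact permutation p = 0.1, the smallest that 3 against 3 libraries allow, and 0.14 adjusted over the 7 pairs compared). For TUBA1C against TUBA1B the log2 ratio differed by -0.09, with overlapping libraries (exact permutation p = 0.2, adjusted p = 0.233).

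Among the β-tubulin genes, TUBB, the main β isotype of dividing cells, was at 5027, 5227 and 5845 CPM in 1CT and at 8177, 7002 and 7245 CPM in 1CT-A. It was the only β-tubulin gene called higher, with a log2 fold change of 0.44 (SE 0.08, adjusted p = 0.000529), and its libraries did not overlap. TUBB4B, a broadly expressed β isotype that is also used in cilia, was at 724, 675 and 835 CPM in 1CT and at 861, 864 and 887 CPM in 1CT-A. Every 1CT-A library was above every 1CT library, but the log2 fold change of 0.19 (SE 0.08, adjusted p = 0.069) did not pass. 1CT replicate 3 was the highest of its group, and without it the value was 0.29 with an adjusted p of 0.000318.

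Reads where TUBB4B and the gene on the opposite strand overlap may be counted for either gene or for both. FAM166A overlaps TUBB4B by 124 exon bases, all within the last 300 bases of the TUBB4B transcript, and its counts were 86.6% to 87.4% of those of TUBB4B in every library. Whether the counting used the strand of the reads is not given in the sources used here, so reads of the pair cannot be told apart.

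TUBB6, a β isotype known from muscle and other non-neuronal cells and the second most counted β-tubulin here, was at 3355, 3280 and 4314 CPM in 1CT and at 3292, 2805 and 2870 CPM in 1CT-A. The libraries overlapped, since 1CT-A replicate 1 reached the level of 1CT replicate 2, and the log2 fold change was -0.33 (SE 0.10, adjusted p = 0.0182). 1CT replicate 3 stood above the others, and without it the log2 fold change was -0.17 (adjusted p = 0.0366). The call was lost without 1CT-A replicate 2 (adjusted p = 0.0883) and without 1CT-A replicate 3 (adjusted p = 0.0782).

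TUBB2A, a β isotype that is abundant in brain, was at 446, 459 and 474 CPM in 1CT and at 275, 279 and 269 CPM in 1CT-A, and fell by 0.79 on the log2 scale (SE 0.06, adjusted p = 5.48e-07). TUBB2B, its close copy and a gene of cortical development, was the least counted isotype, with 98, 106 and 111 counts (11.6, 12.8 and 14.3 CPM) in 1CT and 91, 76 and 78 counts (8.16, 6.67 and 6.19 CPM) in 1CT-A. It fell by 0.92 (SE 0.16, adjusted p = 0.000382). Neither gene overlapped between the lines, and their log2 ratio to each other differed by -0.14 with overlapping libraries (exact permutation p = 0.3, adjusted over 7 pairs 0.3). How reads that match both genes were counted is not given in the sources used here.

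TUBB3, the β isotype used as a marker of neurons, was at 111, 110 and 113 CPM in 1CT and at 101, 93.1 and 102 CPM in 1CT-A. Its log2 fold change of -0.21 (SE 0.07, adjusted p = 0.0275) was the smallest that passed, and the call was lost when 1CT replicate 1 (adjusted p = 0.0624) or 1CT-A replicate 1 (0.0512), 2 (0.136) or 3 (0.0633) was left out, and in the fit blocked on replicate number (log2 fold change -0.22, adjusted p = 0.0504). Of 12 neuronal markers, 6 had at most 3 counts in every library, among them DCX, ELAVL4, GAP43 and RBFOX3, and STMN2 was at 0 throughout. MAP2 alone had a mean over 10 CPM, and the sum of the list was 614 to 631 CPM over the 1CT libraries and 225 to 231 over the 1CT-A libraries. Its part in the values of TUBA1A, TUBB2A, TUBB2B and TUBB3 was not tested.

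**Figure D2:**
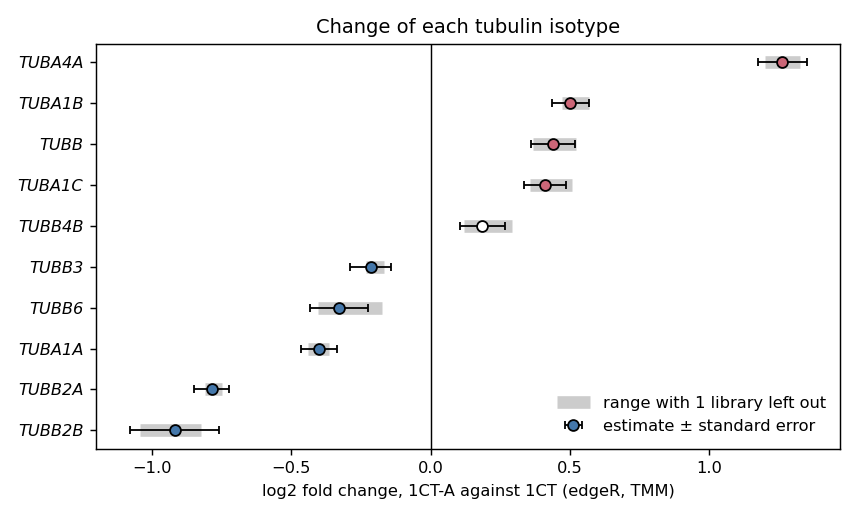
Estimated log2 fold change of each isotype in 1CT-A against 1CT with its standard error, and in grey the range when each of the 6 libraries is left out in turn. Red marks genes called higher, blue genes called lower and white TUBB4B, which did not pass. TUBA4A stands at 1.26 and TUBB2B at -0.92, and the widest grey ranges relative to their change are those of TUBB4B and TUBB6.

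As shares of their family, which do not depend on the scaling between libraries, the β-tubulins shifted by up to 11.8 percentage points between the lines and the α-tubulins by up to 2.86. TUBB made up 52.0%, 53.5% and 50.4% of the β-tubulin counts in 1CT and 64.3%, 63.4% and 63.7% in 1CT-A. TUBB6 made up 34.7%, 33.6% and 37.2% in 1CT and 25.9%, 25.4% and 25.2% in 1CT-A. Neither gene overlapped between the lines, and TUBB6 moved by -9.66 percentage points. TUBB2A went from 4.47% ± 0.332 to 2.35% ± 0.181 (SD, n = 3), TUBB3 from 1.08% ± 0.0969 to 0.843% ± 0.0518 and TUBB2B from 0.125% ± 0.00581 to 0.0596% ± 0.00492, all without overlap, whereas TUBB4B overlapped at 7.20% ± 0.284 and 7.46% ± 0.599. Among α-tubulin counts TUBA1B went from 56.2% ± 0.635 to 59.1% ± 0.573, TUBA1A from 6.43% ± 0.417 to 3.61% ± 0.036 and TUBA4A from 0.513% ± 0.025 to 0.911% ± 0.0415, while TUBA1C overlapped at 36.8% ± 1.04 and 36.4% ± 0.60.

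Which scale applies depends on where along the transcripts the reads fall. With counts divided by transcript length first, TUBB took 43.6% of β-tubulin in 1CT and 55.5% in 1CT-A, TUBB6 39.4% and 29.7%, and TUBA1B 66.8% and 70.1% of α-tubulin. All 10 shares changed in the same direction on both scales. Against TUBB within the same library, the log2 ratio differed between the lines by -1.22 for TUBB2A, -0.76 for TUBB6, -0.66 for TUBB3 and -0.25 for TUBB4B, each lower in 3 of 3 1CT-A libraries (two-sided exact permutation p = 0.1 and 0.14 adjusted over the 7 pairs, for each).

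**Figure D3:**
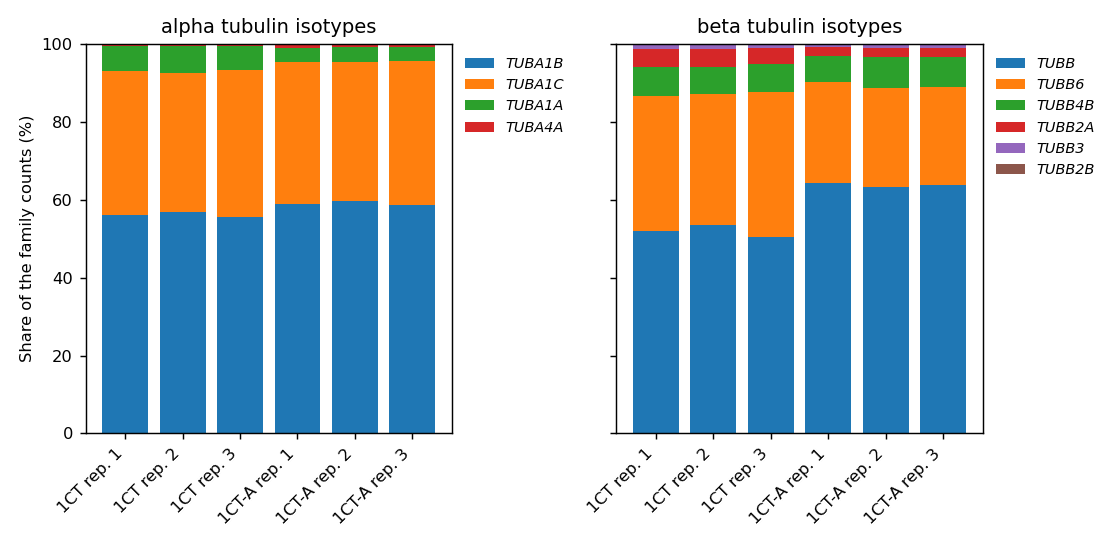
Share of each isotype in the summed counts of the α-tubulin genes (left) and of the β-tubulin genes (right), in percent, with 1 bar for each library. The TUBB segment covers 50.4% to 53.5% of β-tubulin counts in 1CT and 63.4% to 64.3% in 1CT-A, and the TUBB6 segment is smaller in all 1CT-A libraries.

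The summed level of the 4 α-tubulin genes was 12939, 12845 and 14525 CPM in 1CT and 19007, 18853 and 17924 CPM in 1CT-A, 1.38 times higher on average and without overlap. For the 6 β-tubulin genes the sum was 9675, 9764 and 11596 CPM in 1CT and 12713, 11048 and 11380 CPM in 1CT-A, 1.13 times higher on average, with overlapping libraries. The ratio of α-tubulin to β-tubulin was 1.30 ± 0.044 in 1CT and 1.59 ± 0.107 in 1CT-A by counts, and per kb it was 1.42 ± 0.0568 in 1CT and 1.81 ± 0.12 in 1CT-A (SD, n = 3), and no library overlapped. β-tubulin genes outside the 10 are not in these sums.

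Apart from TUBG1, further members of the tubulin superfamily had means under 10 CPM in both lines. Of 12 further tubulin genes 6 passed the filter, of which 2 were called higher and 1 lower. For this and the next list, 25% of all genes tested were called higher and 26% lower. TUBG1, the γ-tubulin that nucleates microtubules at the centrosome, was at 55.9 ± 2.78 CPM in 1CT and 70.4 ± 3.46 in 1CT-A and rose by 0.29 on the log2 scale (SE 0.08, adjusted p = 0.00898). The other calls had means under 10 CPM and were TUBD1 (δ-tubulin, log2 fold change 0.60) and TUBG2 (a second γ-tubulin, -1.25). All 9 listed genes of the γ-tubulin ring complex, the template for new microtubules, were tested. Of these, 5 were higher and none was lower, among them MZT1 (log2 fold change 0.71, adjusted p = 5.41e-05), TUBGCP3 (0.53, 0.000156) and TUBGCP5 (0.47, 0.0306).

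Of 24 tested genes that fold tubulin or adjust its mRNA, 14 were higher and 3 lower, with a median log2 fold change of 0.26. Over all genes tested the shares were 25% higher and 26% lower. All 8 subunits of the CCT chaperonin, the chamber in which tubulin and actin fold, were higher, from 0.19 for CCT3 to 0.56 for CCT5 (adjusted p = 1.45e-05). Of the 7 tubulin cofactor genes 1 was called, TBCA, which takes up β-tubulin and rose by 0.28 (adjusted p = 0.00304). Prefoldin subunits were mixed, with 3 of 6 higher, namely PFDN2 (log2 fold change 0.67, adjusted p = 7.48e-06), VBP1 (0.40, 0.00211) and PFDN4 (0.29, 0.0289), and 2 lower, PFDN5 (-0.50, 0.000152) and PFDN1 (-0.49, 0.000305). TTC5, the factor that starts the decay of tubulin mRNA, was at 20.6, 22.3 and 21.3 CPM in 1CT and 31.6, 34.1 and 31.2 CPM in 1CT-A and rose by 0.55 (adjusted p = 0.000358). SCAPER, an adaptor in the same decay, fell by 0.61 (adjusted p = 0.0101). CNOT11, listed with TTC5 and SCAPER for the adjustment of tubulin mRNA, rose by 0.27 (adjusted p = 0.0398).

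Of 27 listed enzymes that modify tubulin, 26 are in the files and 16 passed the filter, of which 2 were called higher and 3 lower. Among all genes tested, 51% were called in either direction, so calls were less common in this list. Most of these enzymes act on the tails, and the 3 acetylation genes, which act elsewhere on α-tubulin, were not called. TTLL12 (log2 fold change 0.79, adjusted p = 4.65e-06) and TTLL4, a glutamylase (0.60, 0.00011), were higher. TTLL3, a glycylase (-1.57), VASH1, a detyrosinating enzyme (-0.98), and KIAA0895L, the older symbol of a detyrosinating protease (-0.38, adjusted p = 0.0481), were lower, the first 2 with means under 10 CPM. The number called lower was 1 with the replicate block.

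Among 36 genes of microtubule-associated and dynamics proteins, 29 were tested, 12 were higher and 8 lower, with a median log2 fold change of -0.04, where 25% of all genes tested were higher and 26% lower. Of the 9 tested genes whose products bind along the microtubule lattice, 5 were lower and 1 was higher. MAP2, a lattice protein of neurons, was at 619, 609 and 626 CPM in 1CT and 223, 230 and 223 CPM in 1CT-A and fell by 1.495 (SE 0.06, adjusted p = 1.52e-09). MAP1B, another neuronal lattice protein, fell by 0.98 (adjusted p = 2.16e-07). MAP1A was the lattice gene called higher, by 0.51 (adjusted p = 0.000472), from 65.9 ± 6.29 to 96.4 ± 5.82 CPM. MAP7D2 had the lowest log2 fold change of the list, -4.30, from 14 to 27 counts in 1CT and 1 or 2 in 1CT-A.

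All 5 tested genes whose products depolymerise microtubules or sequester tubulin were higher, as were 25% of all genes tested. KIF2C, a depolymerising kinesin, rose by 1.09 (adjusted p = 1.25e-06) from 24.5 ± 2.35 to 53.5 ± 3.35 CPM, and STMN1, which holds free tubulin dimers, rose by 0.53 (adjusted p = 3.93e-05). Of the 7 severing genes 3 were higher, among them FIGNL1 (0.76) and KATNA1 (0.73), and 2 were lower, among them KATNAL1 (-0.93).

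Most listed genes of the G2 and mitotic phases were higher in 1CT-A. Of 54 G2/M genes of the Seurat package, which include TUBB4B, 50 were higher and none was lower, with a median log2 fold change of 0.86. Over all genes tested, 25% were higher and 26% lower. TUBB4B, HN1, RANGAP1 and HMMR were not called. KIF2C and CKAP5, both called higher, are also in the list of microtubule-associated and dynamics proteins, so these lists are not separate. Examples of G2/M genes called higher are HMGB2, a chromatin protein (2.17, adjusted p = 2.47e-06), CENPA, the centromeric histone (1.63, 2.01e-05), and CDCA8, a subunit of the chromosomal passenger complex (1.51, 2.09e-08). Without TUBB4B the sum of the G2/M list was 4265 to 4531 CPM over the 1CT libraries and 7891 to 7923 over the 1CT-A libraries. The part of cycling cells in the values of the tubulin genes was not tested.

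**Figure D4:**
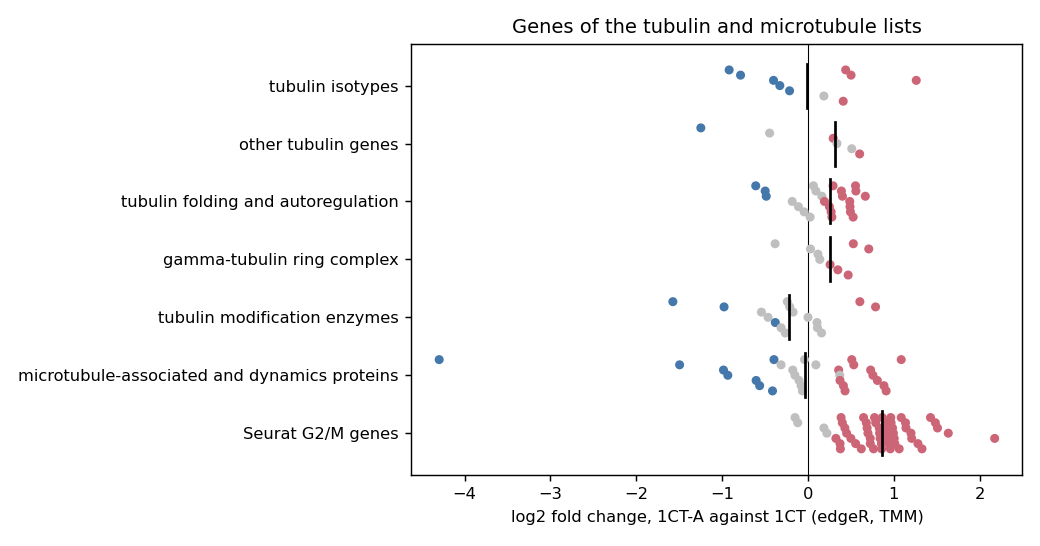
log2 fold change in 1CT-A against 1CT of every tested gene of the tubulin and microtubule lists, with red for genes called higher, blue for genes called lower, grey for genes that did not pass and a black line at the median of each list. The point at the far left is MAP7D2 at -4.30, and the medians run from -0.23 for the modification enzymes to 0.86 for the G2/M genes.

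The genes most like each isotype over the 6 libraries differed from isotype to isotype, by Pearson's r of log2(CPM + 1) among the 8224 genes that averaged 10 CPM or more. The nearest were SCARF2, BID and MAPK8IP3 for TUBA1A, SNHG15, HNRNPU-AS1 and TRIM16 for TUBA1B, CXXC1, CCT7 and ERP29 for TUBA1C, and PAGR1, HAUS5 and HAUS1 for TUBA4A. For the β-tubulins they were TCOF1, ATF4 and ZMYND19 for TUBB, MACF1, ADAM12 and TP53INP1 for TUBB2A, KDM4B, ACOT7 and AP5Z1 for TUBB2B, ARHGAP5, POU2F1 and AP2M1 for TUBB3, and C14orf2, YWHAB and SAP30L for TUBB6. For TUBB4B the nearest gene was FAM166A, which overlaps it, followed by ATAD3A and RPSAP9. These r were 0.985 to 0.999, and 58 genes for TUBB6 and up to 994 for TUBA4A passed 0.95. With 6 libraries in 2 groups, a gene that differs between the lines and varies little within them reaches such a value, so the order is a description only.

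The promoters of the 10 genes, from 250 bases before to 50 bases after the start in RefSeq on GRCh38.p14, were searched on both strands for 4 short motifs, and all 10 were matched. Only the first promoter entered for each gene was searched, and it need not be the start used in these cells. That of TUBA1C, at chr12:49227676-49227975, lies away from the annotated gene start at 49188736. The same holds for TUBA4A (chr2:219253869-219254168, gene start 219277902) and TUBB (chr6:30720102-30720401, gene start 30717435). It also holds for TUBB2B (chr6:3227604-3227903, gene start 3231730) and TUBB3 (chr16:89921675-89921974, gene start 89921392). The letters CCAAT were in 5 of them (TUBA1A, TUBA1C, TUBB, TUBB2B and TUBB4B) and in 35.7% of 27305 promoters of the same length. TTTGAA was in those of TUBA1C and TUBB4B and in 15.4% of all. TATAAA was in that of TUBB2A and in 11.95% of all, and CTTTGAT, which shares the letters TTTGA with TTTGAA, was in 0 of the 10 and in 2.64% of all. The genes with CCAAT include called rises, called falls and TUBB4B, which did not pass.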

How the data were processed

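Per the labels, 500 ng of total RNA per sample was made into libraries with a Lexogen Quant-Seq kit and sequenced on an Illumina NextSeq instrument. The study's methods name another extraction kit and an array for these lines, and the labels were followed, since the files hold whole-number counts. The authors deposited 1 file of raw counts per library, whole numbers of reads per gene symbol, neither normalized nor pooled. The submitters' processing notes name Bowtie2, edgeR and hg19 without their roles. The counting tool, its use of strand and the treatment of reads that match several genes are not given in the sources used here. GRCh38 positions describe the annotation used here, not the counting.

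Counts of repeated symbols (286) were added. edgeR 4.0.16 in R 4.3.3 was run on all genes with TMM scaling, filterByExpr (minimum count 10) and the quasi-likelihood test for the cell line, and p-values were adjusted by Benjamini-Hochberg over the 12514 genes tested. Fold changes are on the TMM scale, while CPM values are scaled to library totals. A gene was called at an adjusted p under 0.05. The code was tested on simulated data. Exact permutation tests of isotype ratios used a pseudocount of 0.5 counts.

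Libraries with the same replicate number did not deviate together (correlations -0.162, 0.219 and -0.139 over 8231 genes), so the numbers were not used as a pairing. The isotypes, the gene lists and the markers were chosen with earlier results of these data known. Named genes are the 10 isotypes, APC, up to 3 called rises and 3 called falls per list with a mean of at least 10 CPM, and the 3 genes most like each isotype. TUBD1, TUBG2, TTLL3, VASH1, MAP7D2, MAP1A, CCT3, TBCA, CNOT11, STMN1, STK16, FAM166A, TUBA1B-AS1, VBP1, PFDN4, HN1, RANGAP1, HMMR and CKAP5 were named after their values were seen. Alternatives were DESeq2 1.42.0 and its size factors, limma-voom (limma 3.58.1), library size only, upper quartile, no filter, a minimum of 10 counts in all libraries, the largest entry of a repeated symbol, tubulin pseudogene counts added, another pseudocount, a threshold of 0.01, the replicate block and leaving out each library. The coding ends of the α-tubulin genes are not reported here.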

Additional observations from a re-analysis of the deposited data

How the results depend on the processing

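TUBA1A, TUBA1B, TUBA1C, TUBA4A, TUBB, TUBB2A and TUBB2B kept their direction and stayed past the threshold in all 15 alternatives, and no result changed its sign. TUBB3 was not called with library size only (-0.18, adjusted p = 0.0537), with no filter (-0.17, adjusted p = 0.13), with the replicate block (-0.22, adjusted p = 0.0504) and without 4 of the 6 libraries in turn, and over all alternatives its adjusted p ran from 0.00896 to 0.136. TUBB4B passed with library size only (0.22, adjusted p = 0.0252), with no filter (0.23, adjusted p = 0.00463), with limma-voom (0.19, adjusted p = 0.048) and without 1CT replicate 3, and ran from 0.12 to 0.29. TUBB6 ran from -0.40 to -0.17. The number of isotypes called lower was 3 at an adjusted p under 0.01 and 3 to 5 with each library left out, and that called higher was 4 to 5. Modification enzymes called lower were 1 with library size only, DESeq2, limma-voom or the replicate block, and 1 to 3 with a library left out. γ-tubulin ring complex genes called higher were 3 with upper quartile scaling and 3 to 5 with a library left out. Of the G2/M genes 1 was lower with upper quartile scaling, and of the further tubulin genes 1 was higher with DESeq2 and 1 to 2 with a library left out. The replicate block changed no other call among the isotypes and moved no other list count by over 1.5 times. Over all genes, the calls were 3131 higher and 3257 lower, 3441 and 3014 with library size only, and 2681 and 3661 with upper quartile scaling. Division by transcript length was added after the data were seen and moved all 20 isotype shares by more than the spread between replicates. TUBB2B rests on 76 to 111 counts per library. The causes were not tested.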

Other observations

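Tubulin pseudogenes took few counts. TUBA3FP was at 0.661 CPM on average in 1CT and TUBBP5 at 0.78 CPM, each with under 10 counts in every library, and adding them to their family changed no isotype share by more than the spread between replicates. MC1R, the gene upstream of TUBB3, was at 3.31 CPM on average in 1CT.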
